A study of Mus musculus with 8 samples.

Results

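The heat shock proteins and DnaJ chaperones were defined by name, as every protein-coding entry of the count table whose gene symbol starts with Dnaj, Hspa, Hspb, Hspd, Hspe, Hsph or Hsp90. This rule gave 74 genes of the 31894 with a gene identifier. They were 28 Dnajc, 13 Dnajb and 4 Dnaja genes, 13 Hspa genes, 10 Hspb genes, 3 Hsp90 genes, and Hspd1, Hspe1 and Hsph1. 10 further entries with these prefixes, such as the pseudogene Hspd1-ps3, are not classed as protein coding and were left out. The Hspb prefix also brought in Hspbp1, which encodes a nucleotide exchange factor of HSP70, and Hspbap1, which encodes a protein that binds a small heat shock protein, although neither is a small heat shock protein itself.

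The cells came from breast cancer brain metastases (BCBM) that grew after injection of organoid cells into the brains of mice, which the labels give as strain FVB and genotype wild type. The organoids had been derived from PyMT E-cad-mCFP mammary carcinomas, in which the polyoma middle-T antigen is expressed from the mouse mammary tumor virus promoter and E-cadherin carries a cyan fluorescent tag, and had been enriched for growth in the brain by serial transplantation, so that all libraries trace back to this enriched material. From each of 4 mice, numbered 57, 58, 67 and 70, an E-cadHI and an E-cadLO population was sorted from the same enzymatically digested metastasis and sequenced as bulk mRNA, which gave 8 libraries with 4 per group. Both populations of a mouse shared its treatment, which per the study's methods for intracranial injection included the analgesics carprofen and buprenorphine and anesthesia. The methods give only a range of ages at injection for all mice of the study, the labels give no age for these 4, and the purity of the sort was checked only on the CFP-positive population.

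Chaperones bind proteins that are not fully folded and keep them from aggregating. HSP70 proteins (Hspa genes) work in cycles of ATP hydrolysis that J-domain proteins (Dnaj genes) start and that nucleotide exchange factors such as HSP110 (Hsph1) end, while HSP90 proteins finish the folding of kinases and receptors, the chaperonin Hspd1 with its lid Hspe1 folds proteins inside mitochondria, and small heat shock proteins (Hspb genes) hold unfolded clients without using ATP. Under heat or protein damage the transcription factor HSF1 binds heat shock elements in the promoters of many of these genes, and under stress of the endoplasmic reticulum (ER) other factors act on ER stress elements upstream of the ER members. Tumor cells commonly hold high levels of these proteins, and several J-domain proteins are known for roles in neurons.

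The 8 libraries held between 9102781 and 15769200 counts, and 3 counts corresponded to between 0.190 and 0.330 CPM, the counts of a gene scaled to a common library total. The E-cadLO library of mouse 58 stood apart by Gm42418, a noncoding gene known to overlap a ribosomal RNA repeat, which took 14.4% of its counts against 2.23% to 7.67% in the others. The E-cadLO library of mouse 57 stood apart by a TMM scaling factor of 1.197 (0.911 to 1.041 in the others) and by a summed level of 1206 normalized CPM for 10 fibroblast and mural markers, against 10.3 to 195 in the others. As a check of the label, the epithelial marker Epcam was at 1270 ± 93.5 normalized CPM in E-cadHI cells and at 753 ± 338 in E-cadLO cells (mean ± SD, n = 4, groups not overlapping), while Cdh1, which encodes E-cadherin, was at 112 ± 16.0 and 99.2 ± 55.8 with overlapping groups. Epcam was the only one of 10 epithelial markers whose groups did not overlap, 4 of the 10 had a log2 fold change above 0, among them Krt7 (0.68), Elf3 (0.29, higher in E-cadLO in all 4 mice) and Krt18 (0.28), and the sum of the 10 was 9365 ± 1272 normalized CPM in E-cadHI and 9483 ± 3720 in E-cadLO libraries. The summed levels of 10 microglia markers were 31.9 to 260 normalized CPM in E-cadHI and 142 to 934 in E-cadLO libraries, those of 10 astrocyte markers 1203 to 3665 and 767 to 10060, those of 10 oligodendrocyte markers 607 to 8685 and 1343 to 34510, those of 10 neuron markers 31.7 to 156 and 56.6 to 526, and those of 10 endothelial markers 42.0 to 77.2 and 60.3 to 110. No marker of these lists was at 0 in every library of a group. In bulk libraries fewer cells of a type and less RNA per cell cannot be told apart, and the part that such cells had in the results below was not tested.

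Promoter matches to heat shock and ER stress elements are shown first, since many stress-inducible genes are known to be switched on through such elements. Dnajb4 and Dnajc27, also shown, hold a 2-unit match but were not listed as HSF1-regulated. The 250 bases before each RefSeq transcription start (GRCm38.p6) were searched on both strands for a heat shock element of 2 units, GAANNTTC or TTCNNGAA, for its longer form of 3 alternating GAA and TTC units, each 2 bases from the next, which always contains a 2-unit match, and for the ER stress element, in which CCAAT and CCACG are separated by any 9 bases. A promoter was found for 60 of the 74 members. In the lines that follow, 30 bases around a match are printed 5′ to 3′ on the strand of the gene, with the matched letters in capitals, for the members the results return to.
Hspd1 (chr1:55088050-55088079, minus strand): gccttccgGAAGGTTCTAGAAcggaccgtg
Hspe1 (chr1:55088051-55088080, plus strand): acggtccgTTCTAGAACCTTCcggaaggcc
Hspa1a (chr17:34972242-34972271, minus strand): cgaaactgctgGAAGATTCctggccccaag
Hspa1b (chr17:34959324-34959353, minus strand): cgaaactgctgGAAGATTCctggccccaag
Hsph1 (chr5:149636351-149636380, minus strand): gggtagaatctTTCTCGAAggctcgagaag
Dnaja1 (chr4:40722333-40722362, plus strand): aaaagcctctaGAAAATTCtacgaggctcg
Hspb1 (chr5:135887811-135887840, plus strand): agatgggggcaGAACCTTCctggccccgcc
Dnajb4 (chr3:152193846-152193875, minus strand): gttcgttcgttcgctgTTCTAGAAagtaca
Dnajc27 (chr12:4082350-4082379, plus strand): cacccatcggtGAAGATTCcaggaaaaaaa
Hspa5 (chr2:34772020-34772049, plus strand): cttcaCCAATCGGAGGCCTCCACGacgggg
Hsp90b1 (chr10:86705632-86705661, minus strand): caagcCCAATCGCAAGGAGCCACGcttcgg
Dnajc3 (chr14:118937822-118937851, plus strand): cacaaCCAATCAGCGCCAACCACGacccgg

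Hspd1 and Hspe1 lie head to head on chromosome 1, and the 3-unit elements shown for them are the same stretch of DNA read from opposite strands. Hspa1a and Hspa1b carry the same 30 bases at the same distance from their starts (-104 to -97). A 3-unit heat shock element was found in 3 of the 60 members (Dnajb6, Hspd1 and Hspe1), which is 5% against 0.514% of the 27025 genes with a promoter in the RefSeq table. The 2-unit form was found in 14 members, 23.3% against 14.5% of all genes. Among the 12 members listed as HSF1-regulated from general knowledge, 9 had a promoter and 7 of these held the 2-unit form. Of the 51 other members with a promoter, 7 held it, Dnajb4 and Dnajc27 among them. This is 13.7%, near the share of all genes. The ER stress element was found in Hspa5, Hsp90b1, which holds it at a second site as well, and Dnajc3, which is 5% of the members against 0.13% of all genes. Matches are descriptions of these windows and were not measured as binding sites.

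Every library expressed most of the members. Between 59 and 64 of the 74 had at least 10 counts in a given library, and the members together took between 1.0% (E-cadLO, mouse 58) and 1.26% (E-cadHI, mouse 67) of its counts. Hsp90ab1, Hspa5, Hspa8 and Hspa9 alone gave between 53.3% and 58.4% of the member counts in each library. These encode the constitutive cytosolic HSP90, the ER HSP70 known as BiP, the constitutive cytosolic HSP70 and the mitochondrial HSP70. Per kilobase of exon, the mean level over the 8 libraries was highest for Hsp90ab1 (677 normalized CPM per kb), followed by Hspa5 (535), Hspa9 (274), Hspa8 (239) and Hsp90b1, the ER HSP90 (180). The leading members of the other families were Hspd1 at 130, Hspb1 at 101, Dnajc8, a J-domain protein of the nucleus, at 60.8, Dnaja2 at 57.3 and Dnajb11, a J-domain protein of the ER, at 57.1 normalized CPM per kb. The length used was that of all annotated exons of a gene, so this order also depends on the annotation. Dnaja1 had 167.9 normalized CPM over 8629 bases and Dnaja2 170.3 over 2975 bases. Dnajc11, at 163.7 normalized CPM, lay above Dnajc8 at 155.3 before division by length.

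**Figure D1:**
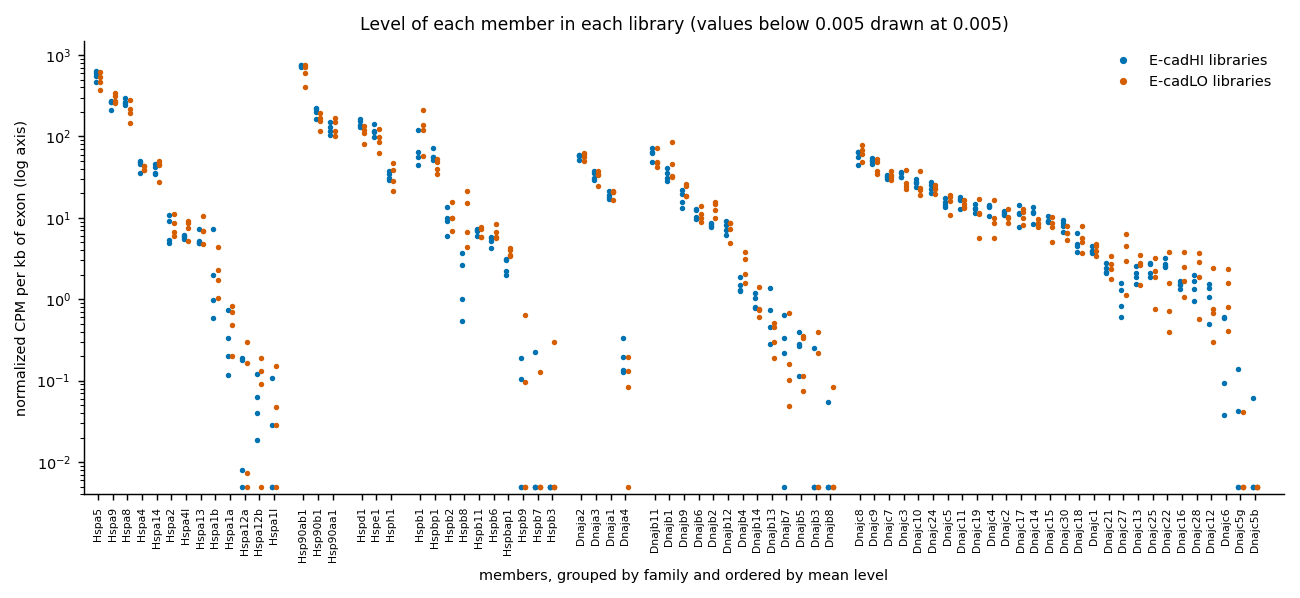
Level of each of the 74 members in each of the 8 libraries, as normalized CPM per kilobase of exon on a log axis, with members grouped by family and ordered by their mean. Blue points are E-cadHI and orange points E-cadLO libraries, and values below 0.005 are drawn at 0.005. Hsp90ab1, with a mean of 677, leads, and the points of both groups lie on top of each other for most members.

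At the low end, 11 members did not reach the expression filter and were not tested (Dnaja4, Dnajb3, Dnajb7, Dnajb8, Dnajc5b, Dnajc5g, Hspa12b, Hspa1l, Hspb3, Hspb7 and Hspb9). Dnajc5b had 1 count over all 8 libraries, and Hspb3 had 2. Several members cannot be measured cleanly with reads of 65 bases, since part of their exon sequence is also present in another gene. The share of 65-base windows found elsewhere was 63.6% for Hspa1a and 58.3% for Hspa1b, mostly in each other, 71.3% for Hspa1l, 47.4% for Hspb1 (with the pseudogene Hsp25-ps1), 44.5% for Hsp90aa1, 35.6% for Hspa8, and 35.1% for Hspd1 (mostly with Hspd1-ps3). It was 23.3% for Dnajc30 (with Bud23) and 22.6% for Hspb2 (with Cryab), and at most 19.8% for every other tested member. How the counting treated such reads, and whether it used strand, is not given in the sources used here, and 29 members share exon positions with another gene.

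The comparison of E-cadLO with E-cadHI cells asks whether the sorted populations differ in their chaperone transcripts. Of the 63 members tested, 0 passed an adjusted p of 0.05 in either direction with edgeR's quasi-likelihood test, where 0.0% of the 13598 genes tested were called higher and 0.0% lower. At an unadjusted p under 0.05, 5 members were higher in E-cadLO (Hspb8, Dnajb2, Dnajc27, Dnajb4 and Hspbap1) against a background of 8.16% of all genes, and 1 was lower (Hspbp1) against 5.81%. When the mouse entered edgeR as a replicate block, 0 members were called as well, where 0.728% of genes were called higher and 0.0% lower, with 7 members higher (background 12.3%) and 0 lower (7.33%) at the unadjusted threshold. By DESeq2, 2 members were called higher, Hspb8 and Dnajc27 (background 2.64%), and 0 lower (0.294%). DESeq2 with the replicate block called 5 higher, Hspb8, Dnajc6, Dnajc27, Dnajb2 and Dnajb4 (background 7.19%), and 0 lower (1.51%). In simulated counts with 200 genes changed 4-fold, 24.4% of the calls by DESeq2, 36.3% of those by DESeq2 with the block and 4.32% of those by edgeR without it were false. With the smaller dispersion of the fit paired by mouse, these shares were 16.3%, 22.9% and 4.07%. Each setting was simulated once and without an effect of mouse, whereas the real libraries of a mouse deviated together. The shares therefore need not hold for these data.

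The fold changes of the members were centred near 0. The log2 fold change (E-cadLO over E-cadHI) was above 0 for 31 members and below 0 for 32, where 55.1% of all genes tested were above 0. Its median was -0.02 (0.06 for all genes), it ranged from -0.97 for Dnajb13, which had 7 to 49 counts in a library, to 2.62 for Hspb8, and it lay within 0.5 of 0 for 50 of the 63 members (64.6% of all genes). 8 members were higher in E-cadLO in all 4 mice (16.8% of all genes) and 6 were lower in all 4 (14.2%). The groups did not overlap for 3 members that were higher in E-cadLO, Hspb8, Dnajb2 and Hspbap1 (3.9% of all genes), and for 0 that were lower (4.2%).

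**Figure D2:**
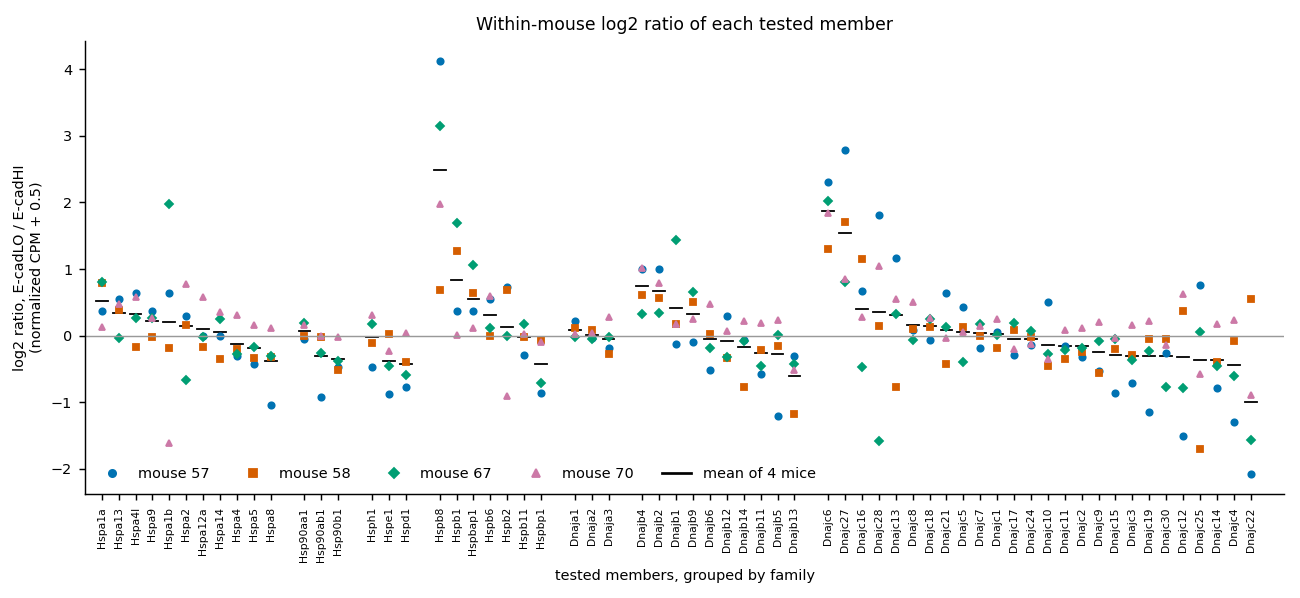
Within-mouse log2 ratio of E-cadLO over E-cadHI (normalized CPM plus 0.5) for the 63 tested members, grouped by family and ordered by their mean. Each point is a mouse and each bar the mean of the 4 mice. Most members straddle 0, while Hspb8, Dnajc6 and Dnajc27 lie above it in every mouse, with Hspb8 between 0.69 and 4.12.

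The mice did not move together. For mice 57, 58, 67 and 70, the median log2 ratio over the 63 members came to -0.07, -0.02, -0.04 and 0.18, and 27, 25, 27 and 48 members were higher in the E-cadLO library. Mouse 70 thus stood apart from the other mice, in which fewer members were higher than lower. Over all 13598 genes tested the medians were 0.02, 0.0005, 0.02 and 0.07, and 6907, 6808, 6927 and 7525 genes were higher. Mouse 70 therefore had the highest values among all genes as well. The summed level of all members was 12240 ± 411 normalized CPM in E-cadHI and 11360 ± 1416 in E-cadLO libraries (mean ± SD, n = 4). The E-cadLO libraries ran from 9910 in mouse 57 to 13150 in mouse 70 and enclosed all E-cadHI libraries, which lay between 11770 and 12600. Over all genes tested, the sum of normalized CPM was likewise lowest in E-cadLO of mouse 57, at 835200 against 960800 to 1098000 elsewhere. Its highest value was in E-cadLO of mouse 70. As a share of unscaled counts, members took 1.212% in E-cadHI and 1.178% in E-cadLO of mouse 57. The low sum of mouse 57 was therefore not particular to the members.

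By family, the medians of the log2 fold changes were 0.11 for the 11 tested Hspa genes, -0.26 for the 3 Hsp90 genes, -0.36 for Hspd1, Hspe1 and Hsph1, 0.33 for the 7 tested Hspb genes, 0.01 for the 3 tested Dnaja genes, -0.05 for the 10 tested Dnajb genes and -0.08 for the 26 tested Dnajc genes. The Hspb family was the only family whose median ratio lay above 0 in each mouse (0.37, 0.64, 0.18 and 0.02 in mice 57, 58, 67 and 70). With 7 genes, each of these medians is the ratio of a single gene. In mouse 58 it was that of Hspbap1, which is not a small heat shock protein, and in mice 67 and 70 that of Hspb11. The Hsp90 family had a median ratio below 0 in each mouse (-0.47, -0.01, -0.26 and -0.00). The median of the Dnajc genes was below 0 in mice 57, 58 and 67 (-0.15, -0.05 and -0.13) and above it in mouse 70 (0.17), and that of the Dnajb genes followed the same order of signs. The families of 3 genes are too small for their medians to describe more than single genes.

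The small heat shock proteins held the largest difference. Hspb8 encodes a small heat shock protein that works with Bag3 to send damaged proteins to autophagy. It was at 1.95, 5.15, 1.04 and 7.20 normalized CPM in the E-cadHI libraries of mice 57, 58, 67 and 70, and at 42.1, 8.61, 13.2 and 29.9 in their E-cadLO libraries. All 4 E-cadLO libraries lay above all E-cadHI libraries, although mouse 58 reached a ratio of only 0.69 on the log2 scale where the other mice reached 1.98 to 4.12. For Hspb8 the log2 fold change was 2.62 (SE 0.70, edgeR adjusted p = 0.262, 0.109 with the replicate block). The adjusted p was 0.00333 by DESeq2 and 5.27e-05 by DESeq2 with the replicate block. Without the E-cadLO library of mouse 57 the log2 fold change was 2.14 (edgeR adjusted p = 0.391). The E-cadLO library with the highest Hspb8 level, that of mouse 57, was also the library with the highest sum of fibroblast and mural markers, and the marker lists of brain, endothelial, fibroblast and mural cells had median log2 fold changes from 1.33 to 3.89. The highest, that of the fibroblast and mural list, was 1.45 without this library and 2.48 with the replicate block, and the part of such cells in the Hspb8 values was not tested.

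Hspb1 encodes the stress-inducible small heat shock protein known as HSP25 in the mouse. Its levels were 46.5, 58.2, 67.0 and 122.5 normalized CPM in the E-cadHI and 60.1, 141, 217.5 and 122.9 in the E-cadLO libraries of mice 57, 58, 67 and 70. Mice 58 and 67 carried the difference, with log2 ratios of 1.27 and 1.69, and the groups overlapped. The log2 fold change was 0.88 (SE 0.41, edgeR adjusted p = 0.367, 0.198 with the replicate block). Of the 65-base windows of Hspb1, 47.4% also occur in a pseudogene, which limits how well its level can be known. The other tested small heat shock proteins had smaller log2 fold changes, of 0.13 for Hspb2, 0.33 for Hspb6 and -0.02 for Hspb11. The last of these is known mainly as a part of the ciliary transport machinery. For Hspb2 the mice differed, with ratios of 0.73, 0.69, -0.01 and -0.91 in mice 57, 58, 67 and 70.

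Hspbp1 releases nucleotide from HSP70. It was at 137, 96.4, 107 and 107 normalized CPM in E-cadHI and at 75.0, 91.9, 64.8 and 100.4 in E-cadLO libraries. It was lower in E-cadLO in each mouse, by 0.86 and 0.71 on the log2 scale in mice 57 and 67 but with ratios of only -0.07 and -0.09 in mice 58 and 70, and the log2 fold change was -0.43 (SE 0.19, edgeR adjusted p = 0.351). Hspbap1, chosen here after its values were seen because its groups did not overlap, was at 18.8 to 29.1 normalized CPM in E-cadHI and 31.6 to 39.9 in E-cadLO libraries (log2 fold change 0.54, SE 0.21, edgeR adjusted p = 0.321).

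**Figure D3:**
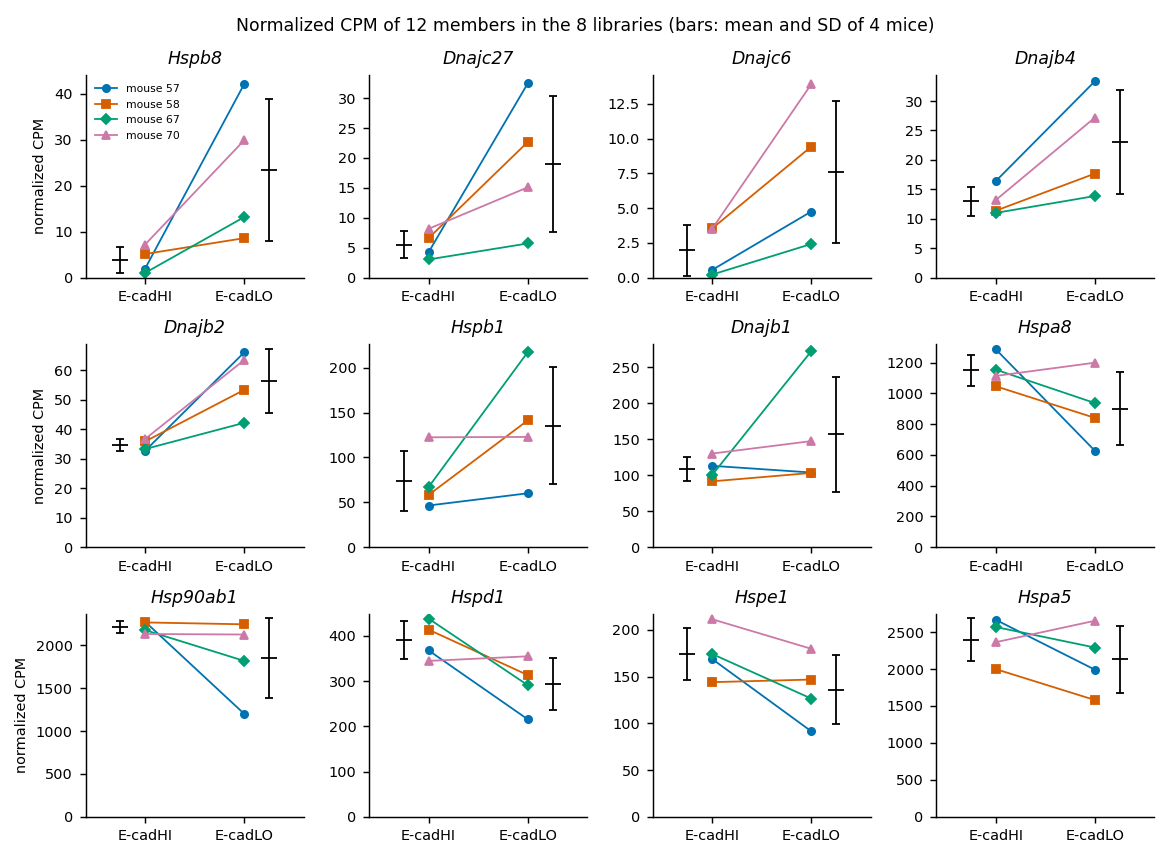
Normalized CPM of 12 members in the 8 libraries, with a linear axis from 0 in each panel. Lines join the E-cadHI and E-cadLO library of a mouse, and the bars beside them give the mean and SD of the 4 mice. Hspb8, Dnajc27, Dnajc6, Dnajb4 and Dnajb2 lie higher in E-cadLO in each mouse, while Dnajb1 is set by mouse 67 (100.2 against 272) and Hsp90ab1 by mouse 57 (2276 against 1200).

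Among the cytosolic HSP70 genes the stress-inducible pair had few counts. Hspa1a, an HSP70 gene that is nearly silent without stress, had between 5 and 25 counts in E-cadHI and between 8 and 35 in E-cadLO libraries, which left its log2 fold change of 0.66 with an SE of 0.70 (edgeR adjusted p = 0.65). On these few counts Hspa1a was higher in E-cadLO in all 4 mice, with log2 ratios of 0.13 to 0.81. Its duplicate Hspa1b was at 1.67, 5.61, 2.75 and 20.5 normalized CPM in E-cadHI and at 2.90, 4.89, 12.3 and 6.36 in E-cadLO libraries. The highest E-cadHI and the highest E-cadLO library came from different mice, and the log2 ratios ran from -1.61 in mouse 70 to 1.97 in mouse 67. The fold change of Hspa1b had no stable direction, with -0.20 (SE 0.78, edgeR adjusted p = 0.912) without and 0.25 with the replicate block. The 54.98% of Hspa1a windows that also lie in Hspa1b make the split between the pair uncertain. Since it is not known whether reads with several matches were counted, the level of both genes is uncertain as well.

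Hspa8, the HSP70 that cells make without stress and that also uncoats clathrin vesicles, was at 1288, 1047, 1155 and 1114 normalized CPM in E-cadHI and at 627, 841, 937.5 and 1200 in E-cadLO libraries. It was lower in E-cadLO in mice 57, 58 and 67 and slightly higher in mouse 70, where the ratio was 0.11. Its log2 fold change of -0.35 (SE 0.22, edgeR adjusted p = 0.459) moved to -0.24 without the E-cadLO library of mouse 57. The HSP110 gene Hsph1 was at 240.7 ± 27.3 and 246 ± 81.5 normalized CPM (log2 fold change 0.03, -0.02 with the replicate block, edgeR adjusted p = 0.96 and 0.949). Its ratios went from -0.46 in mouse 57 to 0.31 in mouse 70, and those of Hspa8 were likewise lowest in mouse 57 and highest in mouse 70.

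The cytosolic HSP90 genes differed in their pattern over the mice. Hsp90ab1 was at 2276, 2267, 2178 and 2132 normalized CPM in E-cadHI and at 1200, 2245, 1818 and 2126 in E-cadLO libraries. Its E-cadHI libraries were within a narrow band, and the E-cadLO library of mouse 57 alone lay far below it. The log2 fold change of -0.26 (SE 0.22, edgeR adjusted p = 0.568) was -0.13 without that library. Hsp90aa1, the HSP90 gene that stress induces, was at 495 ± 79.4 and 526.5 ± 120 normalized CPM, with a log2 fold change of 0.09 (SE 0.21, edgeR adjusted p = 0.847) and ratios between -0.04 and 0.19.

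The J-domain partners of cytosolic HSP70 varied by gene. Dnajb1, the stress-inducible HSP40, was at 113, 91.4, 100.2 and 130 normalized CPM in E-cadHI and at 104, 103, 272 and 147 in E-cadLO libraries. A single library, E-cadLO of mouse 67, stood out (ratio 1.44), and the log2 fold change of 0.53 (SE 0.31, edgeR adjusted p = 0.449) was 0.09 without mouse 67. The same E-cadLO library also had the highest Hspb1 level of all libraries and the highest Hspa1b level of its group, while its Hspa8 and Hsp90ab1 levels lay below those of the E-cadHI library of the same mouse. Dnaja1 and Dnaja2, which help HSP70 fold proteins and move them to organelles, had log2 fold changes of 0.09 (SE 0.15, edgeR adjusted p = 0.778) and 0.01 (SE 0.14, edgeR adjusted p = 0.979).

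Dnajb2 and Dnajb4 were higher in E-cadLO in each mouse. Dnajb2, a J-domain protein that binds ubiquitinated clients and is known for its abundance in neurons, was at 32.7, 35.9, 33.3 and 36.7 normalized CPM in E-cadHI and at 66.1, 53.4, 42.2 and 63.5 in E-cadLO libraries. The E-cadHI libraries were tightly grouped and every E-cadLO library lay above them. The log2 fold change was 0.70 (SE 0.18, edgeR adjusted p = 0.262, 0.138 with the replicate block), with an adjusted p of 0.0249 by DESeq2 with the block. Dnajb4, a cytosolic partner of HSP70 whose promoter holds the 2-unit element shown above, was at 16.4, 11.4, 11 and 13.2 normalized CPM in E-cadHI and at 33.4, 17.7, 13.9 and 27.2 in E-cadLO libraries. Its groups overlapped by the E-cadHI library of mouse 57, and the log2 fold change was 0.83 (SE 0.31, edgeR adjusted p = 0.316), with an adjusted p of 0.0493 by DESeq2 with the block.

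In the Dnajc family, which holds the J-domain proteins of most specialised tasks, Dnajc6 and Dnajc27 had the highest log2 fold changes, that of Dnajc6 on few counts (3 to 46 in E-cadHI and 36 to 199 in E-cadLO libraries). Dnajc6 encodes auxilin, which brings HSP70 to clathrin-coated vesicles and is known from neurons. It was at 0.558, 3.54, 0.223 and 3.51 normalized CPM in E-cadHI and at 4.76, 9.42, 2.42 and 13.9 in E-cadLO libraries. The groups overlapped, and the log2 ratios within a mouse, taken after adding 0.5 CPM, were 2.31, 1.30, 2.02 and 1.84. The E-cadHI levels of mice 57 and 67 were near or below this constant, which draws their ratios towards 0. How closely the mice agree can therefore not be read from these ratios. The log2 fold change of Dnajc6 was 1.96 (SE 0.89, edgeR adjusted p = 0.363) without and 2.35 (edgeR adjusted p = 0.0873) with the replicate block. DESeq2 with the block gave an adjusted p of 0.0004.

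Dnajc27, which encodes a small GTPase of the Rab type with a J domain, was at 4.25, 6.61, 3.05 and 8.17 normalized CPM in E-cadHI and at 32.5, 22.7, 5.72 and 15.1 in E-cadLO libraries. It was higher in E-cadLO in each mouse, from a ratio of 0.81 in mouse 67 to 2.79 in mouse 57. This gave a log2 fold change of 1.78 (SE 0.53, edgeR adjusted p = 0.282), or of 1.37 without the E-cadLO library of mouse 57, with an adjusted p of 0.0259 by DESeq2 and 0.00357 by DESeq2 with the block. The neuron marker sum was higher in the E-cadLO than in the E-cadHI library of each mouse (56.6 against 31.7, 267 against 148, 219 against 69.4 and 526 against 156 normalized CPM in mice 57, 58, 67 and 70). The microglia, oligodendrocyte, endothelial, and fibroblast and mural sums were also higher in each mouse, and the astrocyte sum in all but mouse 57. Some single markers went the other way. Of the 10 oligodendrocyte markers, 2 had a log2 fold change below 0, and Sox10 was lower in E-cadLO in all 4 mice. Only 6 of 10 neuron markers were higher in mouse 57 and 6 of 10 oligodendrocyte markers in mouse 58. Mbp alone gave 20110 of the oligodendrocyte sum of 34510 normalized CPM in E-cadLO of mouse 70. Among E-cadLO libraries, that of mouse 57 had the lowest neuron sum and the highest Dnajb2 and Dnajc27 levels. That of mouse 70 had the highest neuron sum and the highest Dnajc6 level. The part of such cells in the Dnajb2, Dnajc6 and Dnajc27 values was not tested.

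Of the other J-domain genes named by the rule, Dnajb13, Dnajc30 and Dnajc15 lay lower in E-cadLO in each mouse, none past a threshold. Dnajb13, a component of motile cilia and sperm tails, was near the detection floor at 1.95 ± 1.31 and 0.995 ± 0.404 normalized CPM (log2 fold change -0.97, SE 0.63, edgeR adjusted p = 0.478). Dnajc30 and Dnajc15, both proteins of the inner mitochondrial membrane, had log2 fold changes of -0.32 and -0.25, and for Dnajc15 the ratios were -0.86 in mouse 57 and between -0.21 and -0.04 in the other mice. Dnajc8, the most abundant Dnajc gene per kilobase, was higher in 3 of the 4 mice, with a log2 fold change of 0.17 (SE 0.19, edgeR adjusted p = 0.682). Dnajc22, chosen after its values were seen as the member with the lowest ratio in mouse 57, had ratios of -2.08, 0.55, -1.57 and -0.89 and a log2 fold change of -0.76 (SE 0.65, edgeR adjusted p = 0.569).

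**Figure D4:**
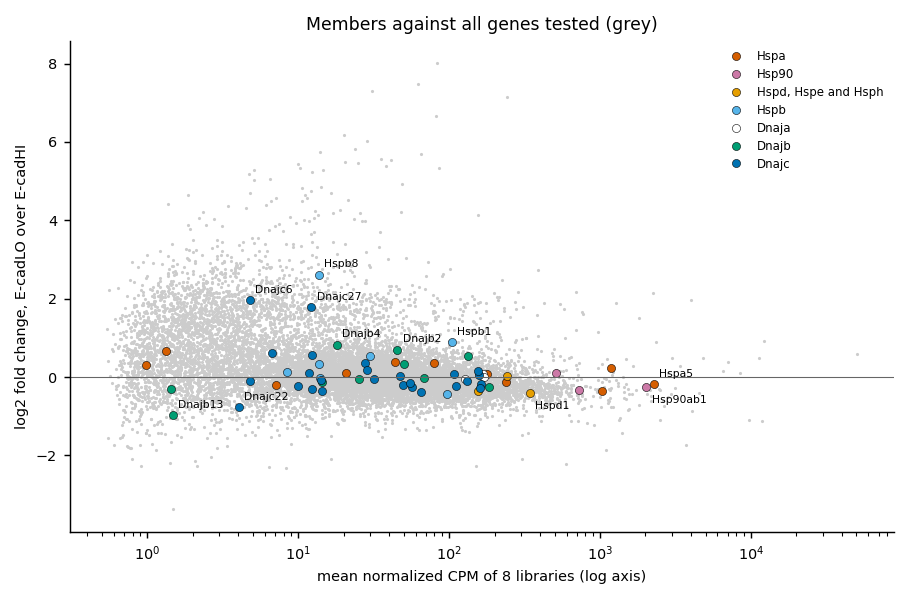
Log2 fold change of E-cadLO over E-cadHI against the mean normalized CPM of the 8 libraries on a log axis. Grey points are all 13598 genes tested and coloured points the 63 tested members by family. The abundant members lie near 0. The members with the largest values are Hspb8 at 2.62, Dnajc6 at 1.96 and Dnajc27 at 1.78, with mean levels of 13.65, 4.79 and 12.25 normalized CPM.

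The ER members lay within 0.5 of 0 as well. Hspa5 (BiP), which guides folding in the ER and holds the stress sensors inactive, was at 2667, 1999, 2569 and 2363 normalized CPM in E-cadHI and at 1991, 1580, 2291 and 2653 in E-cadLO libraries. It was lower in E-cadLO in mice 57, 58 and 67 and higher in mouse 70, with a log2 fold change of -0.17 (SE 0.21, edgeR adjusted p = 0.70). Hsp90b1, the ER HSP90 known as GRP94, had ratios of -0.47, -0.51, -0.38 and -0.03 and a log2 fold change of -0.33 (SE 0.20, edgeR adjusted p = 0.459). Dnajc3, which restrains the ER stress kinase Eif2ak3, was at -0.27 (SE 0.19, edgeR adjusted p = 0.509), and Dnajb11, a BiP partner that binds unfolded chains, was at -0.24 (SE 0.21, edgeR adjusted p = 0.569). Hspa5, Hsp90b1 and Dnajc3 are the members whose promoters hold the ER stress element. Dnajb9, a BiP partner in ER-associated degradation, lay on the other side at 0.32 (SE 0.21, edgeR adjusted p = 0.482), with ratios of -0.10, 0.50, 0.65 and 0.25. Over the 10 ER members the median was -0.11, with 3 above and 7 below 0, and the median ratios by mouse were -0.08, -0.31, -0.22 and 0.18.

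Of the 8 mitochondrial members, 7 had a log2 fold change below 0, with a median of -0.23. The chaperonin Hspd1 was at 368, 414, 438 and 345 normalized CPM in E-cadHI and at 216, 313.5, 291 and 355 in E-cadLO libraries. Mouse 70 again departed from the others, with a ratio of 0.04 against -0.77 to -0.40. For Hspd1 the log2 fold change was -0.41 (SE 0.18, edgeR adjusted p = 0.358, 0.255 with the replicate block). Its lid Hspe1, transcribed from the other side of the same promoter stretch, was at 169, 144, 174 and 211.5 normalized CPM in E-cadHI and at 91.5, 147, 126.5 and 180 in E-cadLO libraries (log2 fold change -0.36, SE 0.22, edgeR adjusted p = 0.46). The ratios of this pair agreed in sign in mice 57 and 67 and not in mice 58 and 70, where 1 of each pair of ratios was 0.03 or 0.04. The member above 0 was Hspa9, the mitochondrial HSP70 (log2 fold change 0.22).

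Over the 12 members listed as HSF1-regulated, 7 were above and 5 below 0, with a median of 0.06 and median ratios of -0.08, -0.01, 0.18 and 0.07 in mice 57, 58, 67 and 70. Within this list the log2 fold changes of Hspb1 and Dnajb1 were 0.88 and 0.53, and those of Hspd1, Hspe1 and Hspa8 were -0.41, -0.36 and -0.35. In each mouse the list held ratios on both sides of 0.

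**Figure D5:**
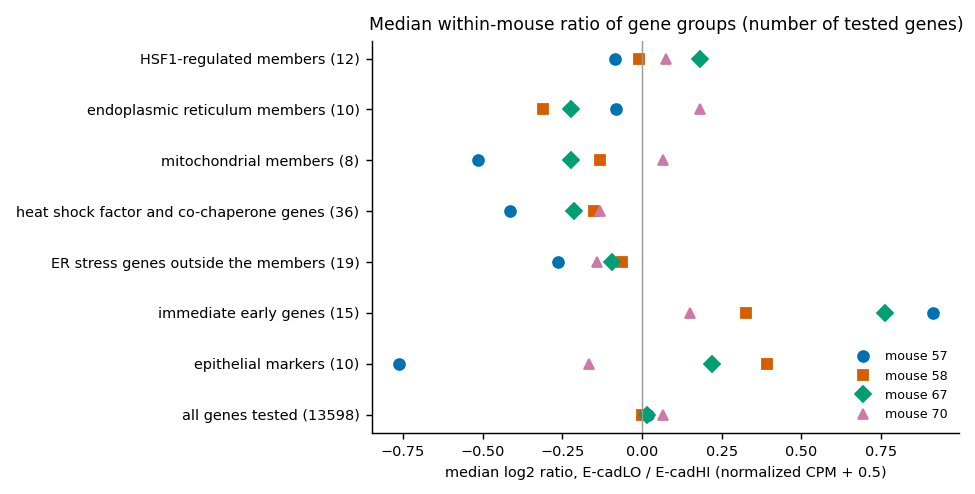
Median within-mouse log2 ratio (E-cadLO over E-cadHI, normalized CPM plus 0.5) of groups of genes, with the number of tested genes in brackets and a point for each mouse. The medians of the 36 heat shock factor and co-chaperone genes lie below 0 in all 4 mice (-0.41 to -0.13) and those of the 15 immediate early genes above 0 (0.15 to 0.91), while the HSF1-regulated members lie on both sides.

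Next to the members stand the factors that control or assist them. The list of 36 heat shock factors, co-chaperones and cytosolic chaperonin subunits had a median log2 fold change of -0.18, with 26 of 36 below 0. 16 of the 36 were lower in E-cadLO in all 4 mice, where 14.2% of all genes were. At an unadjusted edgeR p under 0.05, 7 were lower and 0 higher, where 5.81% and 8.16% of all genes were. By edgeR, 0 were called with or without the block, and DESeq2 with the block called 1 lower, where 1.51% of all genes were. That gene was Bag2, a nucleotide exchange factor that holds back the ubiquitin ligase Stub1, at 140, 113, 118 and 120 normalized CPM in E-cadHI and at 57.7, 83.1, 89.7 and 82.2 in E-cadLO libraries (log2 fold change -0.65, SE 0.17, edgeR adjusted p = 0.262, DESeq2 with the block adjusted p = 0.0411). The HSP90 co-chaperones Fkbp4 and Ahsa1 were at -0.64 and -0.47, and the chaperonin subunits Cct7 and Tcp1 at -0.57 and -0.42 (edgeR adjusted p from 0.303 to 0.317). The groups did not overlap for 6 genes of this list, all lower in E-cadLO (4.2% of all genes tested were lower and 3.9% higher without overlap), and the summed level was 8700 ± 500 normalized CPM in E-cadHI and 7091 ± 871 in E-cadLO libraries.

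Stress genes outside the members were read beside the chaperones. Among 15 immediate early genes, the median log2 fold change was 0.43, 6 were higher and 0 lower at an unadjusted p under 0.05 (8.16% and 5.81% of all genes), and 0 were called by edgeR without and 1 higher with the replicate block (0.0% and 0.728% of all genes). DESeq2 called 3 higher, and 5 with the block (2.64% and 7.19%). The gene called by edgeR was the stress-induced transcription factor Atf3, at 44.1 to 97.5 normalized CPM in E-cadHI and 162 to 568 in E-cadLO libraries (log2 fold change 2.13, SE 0.40, edgeR adjusted p = 0.204, 0.0475 with the block). Among 19 ER stress genes outside the members, 8 were above and 11 below 0, and at an unadjusted p under 0.05, 6 were higher and 5 lower (8.16% and 5.81% of all genes). DESeq2 called 2 higher and 0 lower (2.64% and 0.294% of all genes), and with the block 5 higher and 3 lower (7.19% and 1.51%). By edgeR, 0 were called without the block and 1 higher with it (0.0% and 0.728% of all genes), Ddit3, which encodes CHOP (log2 fold change 1.18, SE 0.23, edgeR adjusted p = 0.21, 0.0405 with the block). The ER stress kinase gene Eif2ak3 was at 1.5 and the pseudokinase gene Trib3 at 1.17, whereas Xbp1, a transcription factor of the secretory pathway, was at -0.85 and the disulfide isomerase gene Pdia3 at -0.58 (edgeR adjusted p from 0.262 to 0.298 for these 4).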

How the data were processed

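Single reads of 65 bases from the 8 mRNA libraries were mapped by the authors with HISAT2 2.1.0 to the mouse genome GRCm38 (Ensembl release 87) and deposited as whole-number counts per gene, without normalization. The paper names Icount for the counting and the submitters' processing notes list HTSeq. Strand setting and the treatment of reads with several matches are not given in the sources used here. All 8 count columns were used, and the 365 entries without a gene identifier, which held 0.0636% to 0.0954% of the counts, were left out of library sizes and tests.

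Counts were tested with edgeR 4.0.16 in R 4.3.3 (TMM scaling, filterByExpr by group, quasi-likelihood test over all 8 libraries, Benjamini-Hochberg adjustment over 13598 genes, threshold 0.05). Normalized CPM are counts over the TMM-scaled library size, and ratios within a mouse used CPM plus 0.5. Exon lengths and positions come from GENCODE M21 and promoters from RefSeq (GRCm38.p6). The members and lists were chosen with earlier results of these data known, and lists are described by counts and medians, with no test of a list. Named members were 16 fixed stress genes, those called by edgeR, the 6 highest and 6 lowest by log2 fold change of those on the same side in all 4 mice, and the most abundant member per kilobase of each family. Both populations of a mouse come from the same animal. Their deviations from the group means correlated at 0.352, 0.275, 0.309 and 0.698 in mice 57, 58, 67 and 70, against -0.516 to 0.153 between different mice. The fit without the mouse was the main design because the study's methods, which name DESeq2, state no block. Standard errors (SE) were derived from the test, as the absolute log2 fold change over the square root of the quasi-likelihood F statistic. These standard errors and the edgeR adjusted p-values are from this fit unless the block is named, and they do not use the pairing.

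Alternatives were DESeq2 1.42.0 with and without the block, edgeR with the block, DESeq2 size factors within edgeR, no filter, at least 10 counts in every library, a robust fit, Gm42418 removed before scaling, each mouse left out with and without the block, and, chosen after the data were seen, the E-cadLO library of mouse 57 or 58 left out alone. The steps were tested on simulated data with the dispersion of the unpaired fit, 13598 genes and 200 genes changed 4-fold, of which edgeR recovered 66.5% and edgeR with the block 62%. Python 3.11, pandas 2.3 and matplotlib 3.10 made tables and figures.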

Additional observations from a re-analysis of the deposited data

Results flagged for a closer look

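The level of Dnaja1, a J-domain partner of cytosolic HSP70, in the E-cadLO libraries was looked at again because the library of mouse 67 lay away from the other mice, at 144.1 normalized CPM against 180 to 187. Its gap to the nearest library was 0.83 of the range of the group, just past the 95% limit of Dixon's test for 4 samples. The E-cadHI library of the same mouse was also the lowest of its group, at 146 normalized CPM, and the ratio within mouse 67 was -0.02. With 95 groups of 4 libraries looked at in this way, about 4.8 such cases arise by chance, since chance marks about 1 in 20 groups.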

How the results depend on the processing

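Mice are the replicates here, and the pairing by animal was tried as a replicate block in edgeR and DESeq2. The block left the number of members called by edgeR at 0 and raised that called by DESeq2 from 2 to 5 higher, with 0 lower in each. No other alternative called a member, and the median log2 fold change of the tested members stayed between -0.03 and 0.05 in all of them. Of 483 values of the 27 named members under up to 18 alternatives, 458 kept their sign and their side of the threshold, 7 passed it under DESeq2 and 18 changed sign, all 18 in Hspa1b, Hsph1 and Dnaja2, whose log2 fold changes lay near 0 or had wide errors. Hspa1b went from -0.20 to 0.25 with the replicate block and 0.27 with DESeq2 and the block, and leaving out a mouse or library gave -0.96 to 1.01 without and 0.006018, 0.45 and 0.93 with the block for mice 57, 58 and 70. Hsph1 went from 0.03 to -0.0249 with the block and -0.008115 with DESeq2 and the block, and leaving out a mouse or library gave -0.089 to 0.17 without and -0.0786 and -0.126 with the block for mice 67 and 70. Dnaja2 went from 0.01 to between -0.0232 and 0.0374 when a mouse or library was left out, with -0.002488 and -0.003466 with the block for mice 57 and 58. The cause of these changes was not tested. Without mouse 67 the log2 fold change of Dnajb1 was 0.09 instead of 0.53, and without mouse 57 that of Hsp90ab1 was -0.11 instead of -0.26. Dnajc6, Dnajb13 and Hspa1a were not tested under the filter of 10 counts in every library. At this depth a member with fewer than about 10 counts in a library, such as Hspa1a, Dnajb13 or Dnajc6, has a fold change with a wide error, and its place in an order of members is uncertain.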
